A study of Mus musculus with 14 samples.

Results

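The 30 genes described here encode the enzymes, carriers and regulators of fatty acid oxidation together with well known targets of PPAR alpha. They were found as the rows of the liver and aorta count tables whose feature name, up to the first _ sign, is a listed gene, and all 30 had 1 row in each table, out of 24732 features in all. The rule uses names only and no measured value. QuantSeq V2, a method that sequences the 3′ end of each transcript, was run on whole liver and whole aorta of HuBL and BT3xHuBL mice, which had all been kept on a normal laboratory diet for 52 weeks. There were 4 HuBL and 4 BT3xHuBL liver libraries, and 3 HuBL and 3 BT3xHuBL aorta libraries. The labels do not spell the strain names out. In the literature HuBL mice lack the low density lipoprotein receptor and carry human apolipoprotein B, and the T cells of BT3 mice express a transgenic receptor for apolipoprotein B; every group here is on the HuBL background, so a difference between genotypes is one made on top of it. The promoter of each transgene, the sex and age of the mice and the pooling of animals are not given. The labels tie no library to an animal, and p-values therefore speak of the spread between libraries, which may be technical.

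PPAR alpha is a nuclear receptor that binds fatty acids and, with RXR, activates genes through direct repeats of a short hexamer with 1 base between them. In liver it is most active in fasting, when fatty acids released from adipose tissue are carried into mitochondria as carnitine esters, shortened in cycles of beta oxidation and partly turned into ketone bodies. Very long chains are first shortened in peroxisomes, and a minor share is oxidised at the other end of the chain by CYP4A enzymes of the endoplasmic reticulum. In the vessel wall the same pathway is run by smooth muscle, endothelium and macrophages, and with special intensity by the brown adipocytes of the fat around the thoracic aorta.

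Promoter windows of 300 bases, from 250 before to 50 after the annotated start site, were taken from RefSeq (GRCm38.p6) for 24 of the 30 genes, 27 windows in all. Cyp4a10, Cyp4a14, Vnn1, Acaa2, Decr1 and Crat had none. The hexamer AGGNCA, repeated directly with 1 base of any kind between its copies, was searched on both strands; PPAR alpha and other receptors of its class bind repeats of this kind. It was found in 0.381% of 32851 windows, and among the 30 genes only in that of Fabp1, the liver fatty acid binding protein. Set against the same repeat of AGGTCA, which has 12 letters to compare, the closest stretch in the Fabp1 window had 1 mismatch, as few as in 0.554% of all windows. It lay at -67 to -55 on the opposite strand, where the first transcribed base is 1, and reads AGGCCATAGGTCA there. The stretches with 2 mismatches in Creb3l3 (-209 to -197), Plin2 (-225 to -213, opposite strand) and Slc25a20 (7 to 19) are printed after it, each read on the strand of the motif, and 3.86% of windows had as few. That of Creb3l3 comes from a window at a start site within the gene (chr10:81092542-81092841). In the other Creb3l3 window, at the start of the gene (chr10:81098823-81099122), the closest stretch had 4 mismatches. The window of Fgf21, the gene with the second highest fold difference in liver, is shown because its closest stretch had 4 mismatches, as did those of most windows (79.8% had 4 or fewer). The window of Hadhb is shown because it overlaps that of Hadha, its partner in the trifunctional protein, by 228 bases. Capitals mark the closest stretch. A match or its absence describes the letters of these windows and was not tested as a binding site.
Fabp1 window, chr6:71199629-71199928, plus strand: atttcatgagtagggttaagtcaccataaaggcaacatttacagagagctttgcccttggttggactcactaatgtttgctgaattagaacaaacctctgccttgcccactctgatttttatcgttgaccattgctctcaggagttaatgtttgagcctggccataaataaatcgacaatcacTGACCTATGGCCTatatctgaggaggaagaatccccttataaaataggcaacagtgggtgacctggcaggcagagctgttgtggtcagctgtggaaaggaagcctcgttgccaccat
Creb3l3 stretch: AGGGGAGAGGTCA
Plin2 stretch: AGGTCAGGGGTCC
Slc25a20 stretch: AGGTGAAAGGTCG
Fgf21 window, chr7:45615441-45615740, minus strand: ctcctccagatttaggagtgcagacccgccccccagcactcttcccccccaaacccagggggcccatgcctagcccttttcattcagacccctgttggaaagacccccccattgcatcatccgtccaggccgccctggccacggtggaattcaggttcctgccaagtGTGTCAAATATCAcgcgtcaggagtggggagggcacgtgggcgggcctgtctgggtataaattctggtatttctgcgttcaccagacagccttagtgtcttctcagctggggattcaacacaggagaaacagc
Hadhb window, chr5:30155003-30155302, plus strand: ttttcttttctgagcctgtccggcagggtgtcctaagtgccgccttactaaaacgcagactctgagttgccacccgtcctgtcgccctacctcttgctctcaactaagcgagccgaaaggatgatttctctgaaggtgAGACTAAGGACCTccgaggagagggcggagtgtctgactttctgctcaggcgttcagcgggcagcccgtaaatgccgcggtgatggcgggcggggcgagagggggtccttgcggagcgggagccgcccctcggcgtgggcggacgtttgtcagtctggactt

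Total counts were 13228123 to 17992459 in the liver libraries and 41933263 to 65539765 in the aorta libraries. No pair of libraries agreed within counting noise. Albumin, a product of hepatocytes, had 77790 to 108347 CPM (counts scaled to the library total) in the liver libraries and 0 to 40 counts in the aorta libraries, and summed smooth muscle markers had 12079 to 16464 CPM in aorta and 13.6 to 40.6 CPM in liver, so both tissues carried the markers of their labels. A pair of BT3xHuBL liver libraries stood apart from the rest. In BT3xHuBL liver 4 the acute phase gene Saa1 had 2418 CPM against 72.1 to 131 CPM in the other livers (9 acute phase genes summed to 5480 to 8555 CPM in HuBL and 5714 to 20071 CPM in BT3xHuBL), and in BT3xHuBL liver 2 the clock output gene Dbp had 40.4 CPM against 1.83 to 7.28 CPM. Results in liver are therefore also given without them. Summed Y-linked genes had 223 to 281 CPM in the livers and 197 to 239.5 CPM in the aortas. Y-linked transcripts were thus present in every library of both genotypes.

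The first comparison asks where the pathway was expressed. Most of its genes were far more abundant in HuBL liver than in HuBL aorta, by a median log2 ratio of 2.93 against -0.10 for all features. Of the 30 genes, 25 were higher in liver and 1, Hadhb, was higher in aorta, by edgeR's quasi-likelihood test at an adjusted p under 0.05. Among the 14912 features tested 83.0% passed (83.6% at an unadjusted p under 0.05, as did 26 of the 30 genes), 39.0% higher and 44.0% lower in liver. Acot2, Pdk4, Plin2 and Crat passed in neither direction. The median is unaltered when genes without a count in HuBL aorta are put at their lower bounds, since these lie above it. Tissue, table and depth of sequencing cannot be told apart in this design, and in whole tissue fewer cells of a type and less RNA per cell cannot be told apart either. CPM in this comparison are on a scale set over all 14 libraries.

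The regulators and the genes of specialised hepatic steps had the widest gaps. Ppara itself averaged 226 ± 40.9 CPM (SD, n = 4) in HuBL liver and 4.07 ± 1.37 CPM (SD, n = 3) in HuBL aorta, a log2 ratio of 5.79 (SE 0.42, edgeR adjusted p 1.66e-08). Creb3l3, a fasting induced transcription factor of hepatocytes that acts with PPAR alpha on Fgf21, averaged 263 ± 24.8 CPM (SD, n = 4) and 1.09 ± 0.273 CPM (SD, n = 3), a log2 ratio of 7.93 (SE 0.21). Acaa1b, a peroxisomal thiolase, differed by 8.95 (SE 0.51) on the log2 scale, Ehhadh, the peroxisomal bifunctional enzyme, by 5.50 (SE 0.26), and Bdh1, which makes the ketone body beta hydroxybutyrate, by 5.21 (SE 0.14). For each of these 5 genes every liver library lay above every aorta library. Part of Acaa1b cannot be separated from its copy Acaa1a, with which it shares 29.3% of the 75-base words in the last 500 bases of its transcript.

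The remaining 4 genes with the highest ratios had 0 or 1 count in the HuBL aortas. Fabp1, which binds fatty acids in the hepatocyte cytosol, had 257138 counts over the 4 HuBL livers and 1 count over the 3 HuBL aortas, a ratio per total counts of 7.181e+05 (95% exact interval 1.289e+05 to 2.836e+07, counting error only). Cyp4a10 and Cyp4a14, microsomal omega hydroxylases and classical PPAR alpha targets, had 7951 and 4700 counts in HuBL liver and none in HuBL aorta, and were at least 7401-fold and at least 4375-fold higher in liver, with 3 counts over the group as the floor. That floor equals 0.0177 CPM of 169500858 counts. BT3xHuBL aorta 3 held 6 counts of each of them, and the other 5 aortas held none. Fgf21, a fasting hormone secreted by liver, had 242 counts against 1, a ratio of 675.8 (120.2 to 2.68e+04). Counts of 0 to 6 in libraries of this depth set no level for aorta.

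The core mitochondrial enzymes and the carnitine shuttle had narrower gaps. Acaa2, the last enzyme of the cycle, differed most, with a log2 ratio of 4.43 (SE 0.18), and the acyl-CoA dehydrogenases Acadvl, Acadm and Acadl had ratios of 2.42, 2.32 and 1.79 (SE 0.16, 0.14 and 0.12). Cpt1a, the rate-limiting entry of long chains into mitochondria, had one of 1.42 (SE 0.17), whereas Cpt2, which reverses its reaction on the inside, had one of 3.14 (SE 0.13).

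Hadha and Hadhb, the alpha and beta subunits of the mitochondrial trifunctional protein, differed in opposite directions. Their genes lie head to head on chromosome 5, Hadha at 30118304 to 30155162 on the minus strand and Hadhb at 30155248 to 30184593 on the plus strand (GENCODE M21, GRCm38), with 85 bases between them, and share the promoter stretch printed above. In the HuBL livers Hadha had 346, 349, 359 and 309 CPM, and in the HuBL aortas 149, 141 and 130 CPM. For Hadhb the same livers had 32.2, 33.0, 33.9 and 35.1 CPM and the same aortas 116, 100.2 and 83.3 CPM. All livers were above all aortas for Hadha and all were below them for Hadhb, also in BT3xHuBL, where Hadhb had 29.7 to 36.6 CPM in liver and 77.0 to 124 CPM in aorta. The log2 ratios were 1.28 (SE 0.11, edgeR adjusted p 2.39e-08) for Hadha and -1.57 (SE 0.14, adjusted p 5.12e-08) for Hadhb. The row of Hadha, like that of Crat, carries a suffix, IMP_OVL, that the sources used here do not explain. The strand setting of the counting is not given either, so reads of overlapping genes may not be separable. The counts come from 3′ ends of transcripts, and whether liver and aorta use the same ends of Hadha and Hadhb was not tested.

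Plin2, which coats lipid droplets, had overlapping ranges in both tissues, at 494 to 658 CPM in the HuBL livers and 461 to 587 CPM in the HuBL aortas, with a log2 ratio of 0.24 (SE 0.16, edgeR adjusted p 0.171). Pdk4, the kinase that shuts pyruvate out of the citric acid cycle in fasting, had 40.9, 17.4, 13.7 and 81.9 CPM in the HuBL livers and 47.9, 38.2 and 34.2 CPM in the HuBL aortas. The livers thus enclosed the aortas, and the log2 ratio was -0.05 (SE 0.67). Acot2, a mitochondrial thioesterase, had a ratio of -0.19 (SE 0.20), and Crat, which exchanges short acyl groups between carnitine and CoA, one of 0.34 (SE 0.17).

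**Figure D1:**
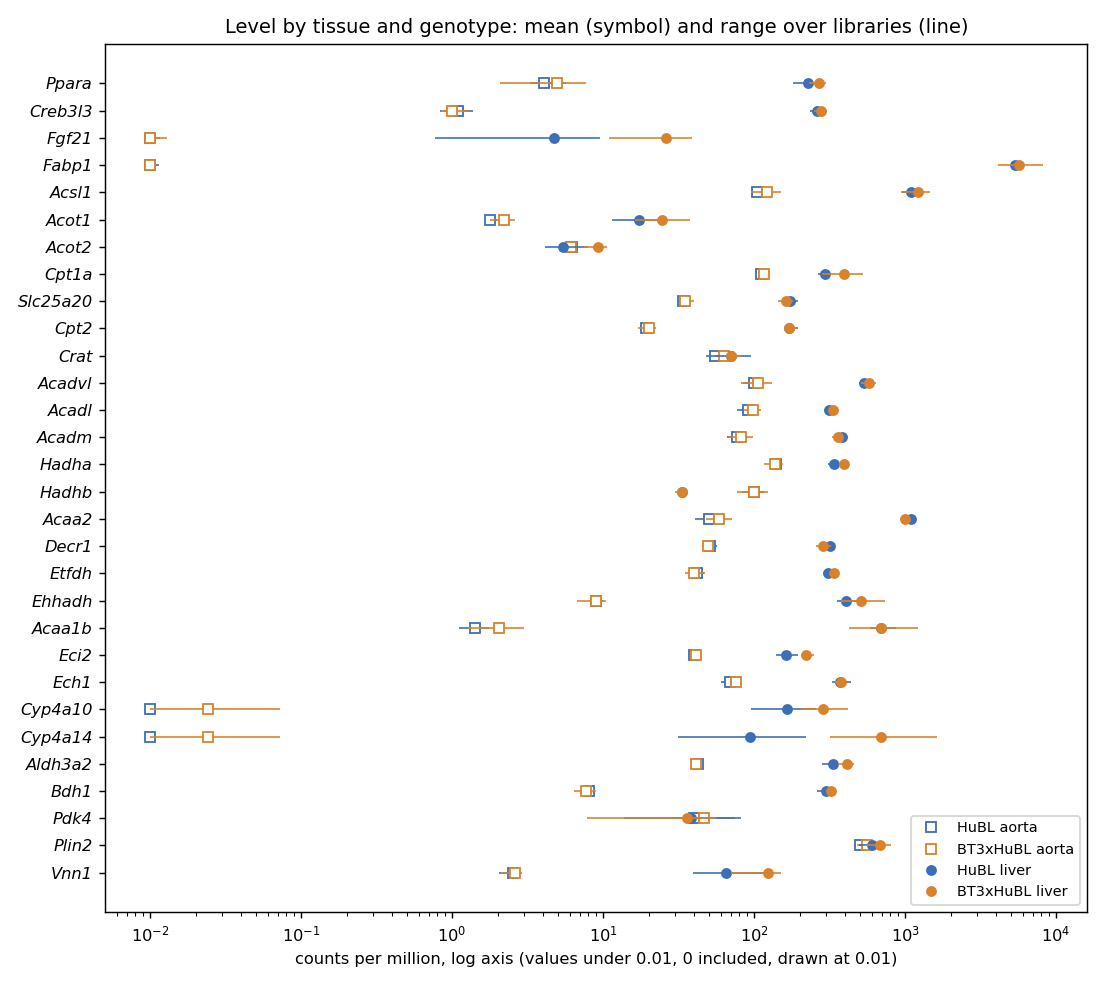
Level of each of the 30 genes in the 4 groups (symbol, mean; line, range over 3 aorta or 4 liver libraries), in CPM on the scale of all 14 libraries, on a logarithmic axis. Liver symbols lie above aorta symbols for most genes, for Hadhb they lie below, and for Plin2, Crat, Acot2 and Pdk4 they lie close together.

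The next comparison asks whether the BT3 transgene went with other levels of these genes in liver. No gene of the 30 passed edgeR's quasi-likelihood test after Benjamini-Hochberg adjustment over the 12453 features tested (smallest adjusted p 0.281), and none of all features did either, 0%. At an unadjusted p under 0.05 there were 7 of the 30, all higher in BT3xHuBL, or 23.3%, against 11.1% of all features. The fitted difference was above 0 for 22 of 30 genes, with a median log2 difference of 0.13 against 0.01 for all features. The other tools called 0 (limma-voom) and 1 (DESeq2, Cyp4a14) of the 30, and 0 and 133 of the 12453 features. From here on CPM are on a scale set within the tissue.

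Fitted values are given by role, and no role was tested against another. The 3 genes of microsomal omega oxidation (Cyp4a10, Cyp4a14 and Aldh3a2) all had fitted values above 0, the median being 0.79, the thioesterases Acot1 and Acot2 were at 0.52 and 0.76, and Fgf21 was at 2.42. Fitted values above 0 were found for 4 of the 8 mitochondrial oxidation genes (median 0.04), over a range of -0.15 (Decr1, an auxiliary reductase for unsaturated chains) to 0.21 (Hadha). Of the 4 genes of the carnitine shuttle 2 were above 0, and of the 4 peroxisomal and auxiliary genes 3. Ppara was at 0.24 (SE 0.14, edgeR adjusted p 0.528), with 175, 145, 226 and 177 CPM in the HuBL libraries and 185, 237, 239 and 191 CPM in the BT3xHuBL libraries. Its libraries overlapped.

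For 5 of the 30 genes no BT3xHuBL liver overlapped a HuBL liver, and in all 5 the BT3xHuBL livers were the higher ones, while 6.57% of all features separated, 2.99% in this direction and 3.58% in the other. These were Cyp4a14, Fgf21, Eci2, Aldh3a2 and Hadha.

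Cyp4a14 had 174, 36.7, 25.3 and 63.5 CPM in the HuBL livers and 344, 254, 321 and 1280 CPM in the BT3xHuBL livers. Its log2 difference was 2.87 (SE 0.85), with an edgeR adjusted p of 0.344 and a DESeq2 adjusted p of 0.0353, and it was 2.03 without BT3xHuBL liver 4, the library that also stood apart in Saa1. HuBL liver 1 was the highest of its group, and without it the difference was 3.71. Cyp4a10, which lies 22121 bases from Cyp4a14 on chromosome 4, had 202, 139, 76.4 and 109 CPM in the HuBL libraries and 165, 163, 331 and 254 CPM in the BT3xHuBL libraries. Its groups overlapped, and its log2 difference was 0.79 (SE 0.34, edgeR adjusted p 0.449). The library with the highest Cyp4a14 was not the one with the highest Cyp4a10.

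Fgf21 had 7.51, 0.617, 1.81 and 5.12 CPM in the HuBL livers, from 119, 8, 24 and 91 counts. The BT3xHuBL livers had 31.1, 8.79, 20.2 and 22.7 CPM, from 513, 133, 313 and 381 counts. The lowest BT3xHuBL liver lay just above the highest HuBL liver, and HuBL liver 2 was the lowest. The log2 difference was 2.42 (SE 0.67, edgeR adjusted p 0.323).

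Eci2, an isomerase that prepares unsaturated chains for oxidation in peroxisomes and mitochondria, had 155, 112, 116 and 139 CPM in the HuBL libraries and 165, 170.1, 173 and 198 CPM in the BT3xHuBL libraries. It had the smallest p of the 30 genes, with a log2 difference of 0.44 (SE 0.12, edgeR adjusted p 0.281); 4.46% of the words at its transcript end also occur in Eci3. Aldh3a2, the fatty aldehyde dehydrogenase, had 278, 225, 282 and 282 CPM in the HuBL libraries and 355, 287, 364 and 312 CPM in the BT3xHuBL libraries, a log2 difference of 0.30 (SE 0.11, edgeR adjusted p 0.376). The groups lay next to each other without overlap. Hadha had 273, 278, 288 and 246 CPM in the HuBL libraries and 299, 307, 324 and 323 CPM in the BT3xHuBL libraries, a log2 difference of 0.21 (SE 0.09, edgeR adjusted p 0.425). The fitted value of Hadhb was -0.02 (SE 0.09).

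Acot2 had 3.79, 3.86, 3.31 and 6.30 CPM in the HuBL livers and 8.32, 6.74, 5.93 and 8.39 CPM in the BT3xHuBL livers. HuBL liver 4 overlapped the other genotype, and the log2 difference was 0.76 (SE 0.22, edgeR adjusted p 0.302). Cpt1a had 209.7, 249.2, 254 and 233 CPM in the HuBL libraries and 358, 418, 223 and 250.4 CPM in the BT3xHuBL libraries, so only BT3xHuBL livers 1 and 2 were above the HuBL range. Its log2 difference of 0.40 (SE 0.18, edgeR adjusted p 0.451) was 0.23 without BT3xHuBL liver 2, the library that stood apart in Dbp, and 0.16 in a fit with a clock gene score as covariate. Vnn1, a pantetheinase strongly induced by PPAR alpha, was at 0.91 (SE 0.40, adjusted p 0.451), with 41.0, 31.3, 41.6 and 94.7 CPM in the HuBL libraries and 115, 56.0, 104 and 120 CPM in the BT3xHuBL libraries.

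Several well known PPAR alpha targets had fitted differences close to 0. Acaa1b was at -0.01 (SE 0.32), Cpt2 at -0.002 (SE 0.10), Ech1 at 0.03 (SE 0.11) and Fabp1 at 0.10 (SE 0.19). BT3xHuBL liver 3 was the highest of all 8 livers for Acaa1b, at 968 CPM, and for Fabp1, at 6487 CPM, and without it these values were -0.43 and -0.12. The values of Cpt2 and Ech1 stayed between -0.07 and 0.11 when single livers were left out, with either sign. Pdk4 was at -0.10 with an SE of 0.77, and its livers ranged from 11.1 to 65.2 CPM in HuBL and from 6.21 to 43.9 CPM in BT3xHuBL, and the difference was 0.58 without HuBL liver 4, 0.23 without BT3xHuBL liver 2 and 0.006 without BT3xHuBL liver 3. The precision thus differed between genes, from an SE of 0.09 for Acadl to 0.85 for Cyp4a14.

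**Figure D2:**
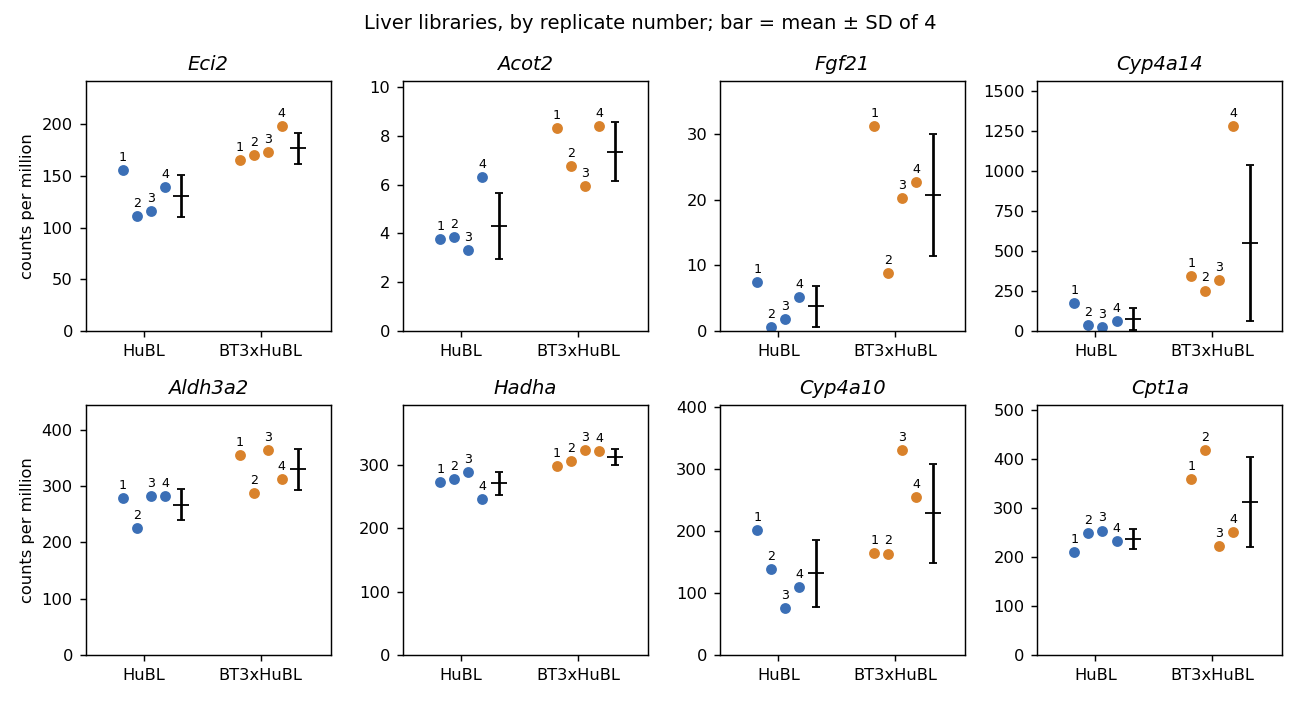
CPM of single genes in the 8 liver libraries (points with replicate numbers; bar, mean ± SD of 4). BT3xHuBL liver 4 reaches 1280 CPM of Cyp4a14, and the BT3xHuBL livers of Fgf21 lie at 8.79 to 31.1 CPM above HuBL livers at 0.617 to 7.51 CPM.

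Many of the genes deviated in the same direction within a liver. Below the mean of their group lay 25 of them in HuBL liver 2 (median deviation -0.14 on the log2 scale) and 23 in BT3xHuBL liver 2 (-0.10), whereas HuBL liver 1 held the highest value of its group for 16 genes and BT3xHuBL liver 3 for 15. Over all features the median deviations of the same libraries lay between -0.01 and 0.01. How often all features were highest in a library was not counted. Correlations were taken on the log2 scale, with 2 CPM added to each level. Across the 8 livers the level of Ppara had a positive Pearson correlation with 22 of the other 29 genes (median r 0.225). None passed at an adjusted p of 0.05 by the exact permutation test over 29 relations. The highest was that of Creb3l3 (r = 0.744, exact p 0.0327, adjusted 0.739; Spearman's rho 0.571, exact p 0.151, adjusted 0.744). Without HuBL liver 2 and BT3xHuBL liver 3, the livers farthest from the median of Ppara, r was 0.588 for Creb3l3 and above 0 for 6 of the 29 genes, so the pooled sign rested on those libraries.

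Markers of other programmes and cell types were summed in the same livers, and no list passed after adjustment over the lists. The summed level of 6 fasting and gluconeogenesis genes (Pck1, G6pc, Tat, Ppargc1a, Igfbp1 and Sds) was 3154 to 4235 CPM in HuBL and 1472 to 3100 CPM in BT3xHuBL, without overlap (exact permutation p 0.0286, the smallest 4 against 4 allow, and 0.171 adjusted over the lists). For 6 pericentral hepatocyte markers it was 6888 to 8219 CPM in HuBL and 8251 to 9553 CPM in BT3xHuBL (exact permutation p 0.0286, adjusted 0.171), and for 4 T cell markers 4.16 to 10.1 and 2.14 to 4.06 CPM, again without overlap, with 4 of 4 genes fitted below 0 (exact permutation p 0.0286, adjusted 0.171). Periportal hepatocyte markers, 6 of 6 fitted below 0, summed to 4633 to 6216 CPM in HuBL and 3417 to 5459 CPM in BT3xHuBL (exact permutation p 0.114, adjusted 0.411). The sums were, for 11 clock genes, 209 to 319 and 258 to 508 CPM (exact permutation p 0.171, adjusted 0.457) and, for 10 hepatocyte markers, 130868 to 153482 and 121508 to 157196 CPM (exact permutation p 0.857, adjusted 0.964). None of the genes of these lists passed the edgeR test. Their part in the differences of the oxidation genes was not tested beyond the clock score. With that score as a covariate 25 of the 30 genes were above 0 (median 0.16) and none passed, where 40 of 12453 features did. Without BT3xHuBL livers 2 and 4 together 24 were above 0 (median 0.20), again with none passing, where 8 of 12793 features did.

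In aorta the same question was asked of 6 libraries. Of the 26 genes with enough counts to be tested, none passed (edgeR adjusted p 1.00 for all), against 0.026% of the 15400 features tested. None had an unadjusted p under 0.05, where 4.08% of all features did, and in none were the genotypes free of overlap, where 9.27% of all features were. DESeq2 and limma-voom called 0 of them as well. Of the 26, 17 were above 0, with a median log2 difference of 0.05 against -0.004 for all features. That sign rested on single libraries: without BT3xHuBL aorta 3 only 10 were above 0 and the median was -0.06, and without BT3xHuBL aorta 2 it was 0.16 with 24 above 0. Without HuBL aorta 3 it was 0.002, without HuBL aorta 1 0.09, without HuBL aorta 2 0.09 and without BT3xHuBL aorta 1 0.03.

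Crat had the smallest p, with 76.5, 79.0 and 70.6 CPM in the HuBL aortas and 88.2, 74.98 and 91.0 CPM in the BT3xHuBL aortas, a log2 difference of 0.17 (SE 0.09, edgeR unadjusted p 0.0857). BT3xHuBL aorta 2 lay within the HuBL range. Acsl1, which activates long chain fatty acids to CoA esters, had 149, 148 and 130.2 CPM in the HuBL libraries and 203, 128 and 159 CPM in the BT3xHuBL libraries, a log2 difference of 0.20 (SE 0.15). BT3xHuBL aorta 1 was the highest and BT3xHuBL aorta 2 the lowest of all 6, and without BT3xHuBL aorta 1 the difference was 0.02. Acaa1b, at 1.83, 2.42 and 1.502 CPM in the HuBL libraries and 2.50, 1.72 and 4.01 CPM in the BT3xHuBL libraries, was at 0.52 (SE 0.34), and at 0.14 without BT3xHuBL aorta 3.

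The thioesterase Acot1 had 2.70, 2.25 and 2.29 CPM in the HuBL libraries and 2.99, 3.52 and 2.39 CPM in the BT3xHuBL libraries, with BT3xHuBL aorta 2 the highest, and a log2 difference of 0.29 (SE 0.23). Ech1, a dienoyl-CoA isomerase, had 99.6, 100.6 and 81.1 CPM in the HuBL aortas and 110.1, 93.3 and 103 CPM in the BT3xHuBL aortas, and Plin2 had 796, 645 and 623 CPM in the former and 651, 815 and 788 CPM in the latter. Their log2 differences were 0.12 (SE 0.10) and 0.13 (SE 0.12). Among the mitochondrial enzymes, Acaa2 had 79.9, 71.3 and 54.5 CPM in the HuBL libraries and 77.1, 65.2 and 95.3 CPM in the BT3xHuBL libraries. Acadl had 137, 127 and 104 CPM in the HuBL aortas and 131, 115 and 150.0 CPM in the BT3xHuBL aortas. The log2 differences were 0.21 (SE 0.18) and 0.10 (SE 0.12), each with overlapping genotypes and with BT3xHuBL aorta 3 the highest library. Without that library they were 0.05 and 0.003.

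**Figure D3:**
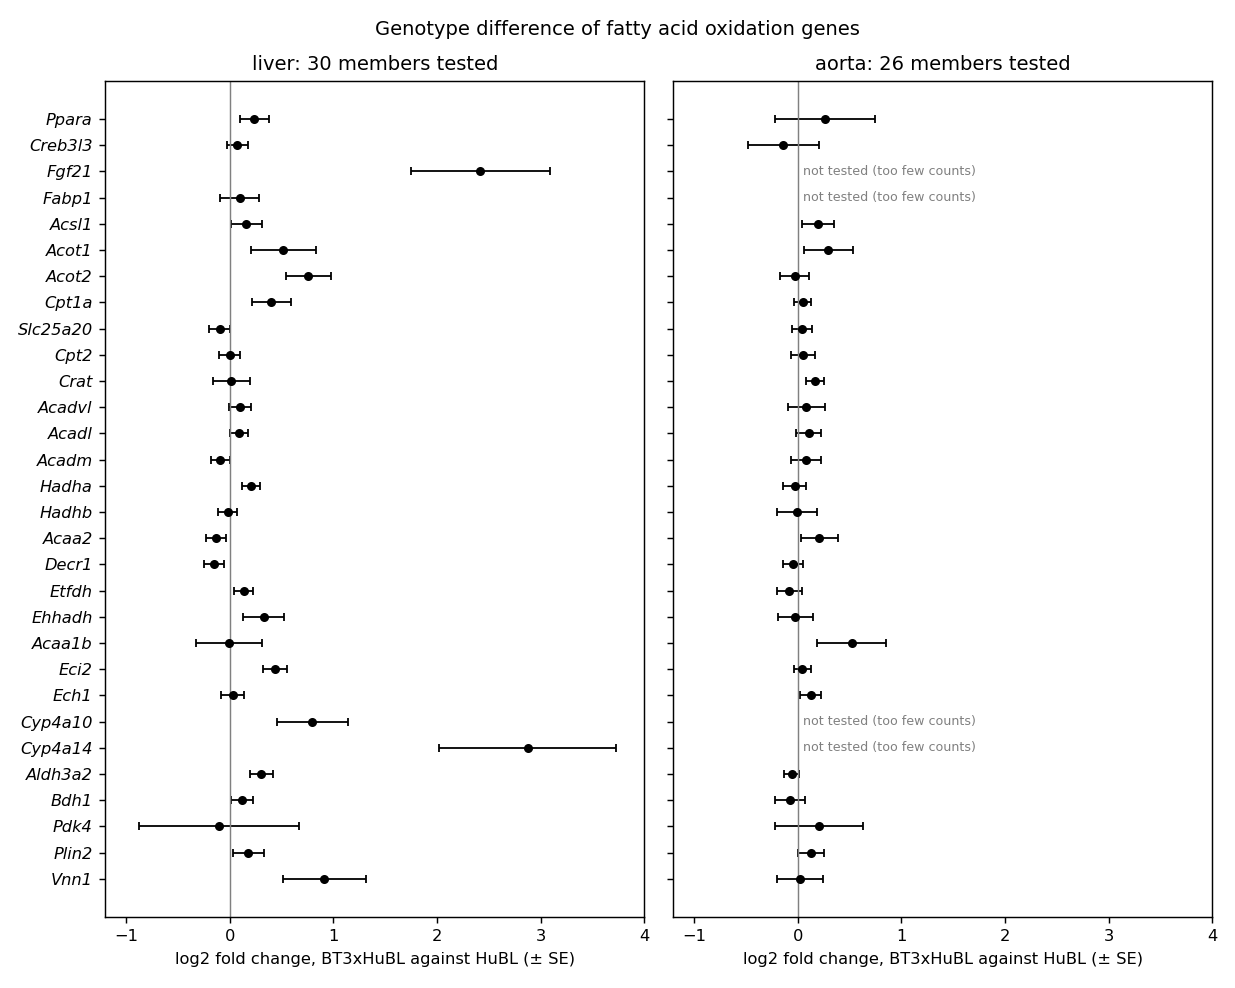
Log2 difference of each gene between BT3xHuBL and HuBL (point, fitted value; line, ± SE), in liver (left, 30 genes) and aorta (right, 26 genes). The liver values run from -0.15 to 2.87 with Cyp4a14 and Fgf21 at the top, and the aorta values from -0.14 to 0.52.

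Many of the genes deviated in the same direction within an aorta library. BT3xHuBL aorta 3 was the highest of its group for 18 of the 26 genes (median deviation from the group mean 0.18 on the log2 scale) and BT3xHuBL aorta 2 the lowest for 20 (-0.21), and HuBL aorta 3 was the lowest of its group for 21 (-0.13). Over all features the median deviations in BT3xHuBL aorta 3, BT3xHuBL aorta 2 and HuBL aorta 3 were 0.003, 0.001 and 0.0008. How often all features were highest or lowest in a library was not counted. The markers of brown adipocytes (Ucp1, Cidea, Elovl3, Cox8b, Cox7a1, Ppargc1a, Otop1, Slc27a2 and Pank1) varied in the same libraries. Their summed level over 9 genes was 148, 148 and 80.5 CPM in the HuBL aortas and 95.4, 24.9 and 227 CPM in the BT3xHuBL aortas, with overlap between genotypes (exact permutation p 1.00, where 0.10 is the smallest 3 against 3 allow). Ucp1, the uncoupling protein that defines brown fat, had 63.8, 67.5 and 31.8 CPM in the HuBL libraries and 29.3, 2.68 and 109 CPM in the BT3xHuBL libraries. Cidea, Ppargc1a and Slc27a2 of the same list also belong to the further lipid genes described below. The white adipocyte markers ran from 434 to 805 CPM in HuBL and from 646 to 946 CPM in BT3xHuBL (exact permutation p 0.40).

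The brown adipocyte sum and the gene levels were correlated on the log2 scale, with 2 CPM added to each, while the values listed are CPM. Over the 6 aortas 21 of the 26 genes had a positive Pearson correlation with that sum (median r 0.708), 11 of them of at least 0.8. Before adjustment over the 26 relations 10 had an exact permutation p under 0.05, and after it 3. How large a share of all aorta features follows this sum was not computed, so these counts have no background. Bdh1 followed it most closely (r = 0.999, exact p 0.00278, adjusted 0.0361; rho 0.943, exact p 0.0167, adjusted 0.0542), and r was 0.989 without BT3xHuBL aortas 2 and 3, the libraries farthest from the median. Its 6 values were 11.2, 11.4 and 10.3 CPM in the HuBL libraries and 10.5, 8.65 and 12.1 CPM in the BT3xHuBL libraries. Hadhb had r = 0.908 (exact p 0.00139, the smallest 6 libraries allow, adjusted 0.0361; rho 1.00, exact p 0.00278, adjusted 0.0361), and 0.849 without those libraries. Hadha had r = 0.966 (exact p 0.00417, adjusted 0.0361; rho 0.943, exact p 0.0167, adjusted 0.0542), and 0.815 without them.

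The levels of both subunits ran side by side in aorta. Hadha had 202, 193 and 175 CPM in the HuBL libraries and 193, 157 and 208 CPM in the BT3xHuBL libraries, and Hadhb had 158, 137 and 112 CPM and 134, 104 and 167 CPM. Ppara, at 7.65, 4.50 and 4.41 CPM in the HuBL libraries and 6.79, 2.80 and 10.3 CPM in the BT3xHuBL libraries, had r = 0.843 (exact p 0.0264, adjusted 0.0858; rho 0.943, exact p 0.0167, adjusted 0.0542), and 0.285 without the 2 outer libraries, so that it rested on them. Cpt1a, Acot1, Eci2, Plin2 and Aldh3a2 had r below 0, from -0.767 (Acot1, exact p 0.0722, adjusted 0.15) to -0.054 (Aldh3a2, exact p 0.893). Within genotypes, with each library taken relative to its group mean, r was above 0 for 21 of the 26 genes. The labels do not say how the aortas were cleaned of surrounding fat. With the brown adipocyte score as a covariate 22 of the 26 genes were above 0 for genotype (median 0.11 against -0.006 for all features). In that fit 4 had an unadjusted p under 0.05 and none passed after adjustment, where 7 of 15400 features did. The share of all features with an unadjusted p under 0.05 was not computed for it. In 4 other marker lists the summed levels of the 3 HuBL and 3 BT3xHuBL aortas did not overlap, each with an exact permutation p of 0.10 and 0.45 after adjustment over the lists. These were clock genes (388 to 415 CPM in HuBL and 529 to 725 CPM in BT3xHuBL), B cell markers (11.9 to 17.3 and 5.18 to 7.72 CPM), hepatocyte markers (16.0 to 28.9 and 33.6 to 57.7 CPM) and markers listed for pericentral hepatocytes (564 to 644 and 662 to 743 CPM). Of the 11 clock genes 9 were fitted above 0 (median log2 difference 0.79) and 1 passed the edgeR test, against 0.026% of all features. In the B cell, hepatocyte and pericentral lists no gene passed. Only 1 of the 10 hepatocyte genes had enough counts in aorta to be tested. Albumin, another of them, had 0.62, 0.05 and 0.13 CPM in the HuBL aortas and 0, 0.15 and 0.02 CPM in the BT3xHuBL aortas. The part of these lists in the values above was not tested.

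**Figure D4:**
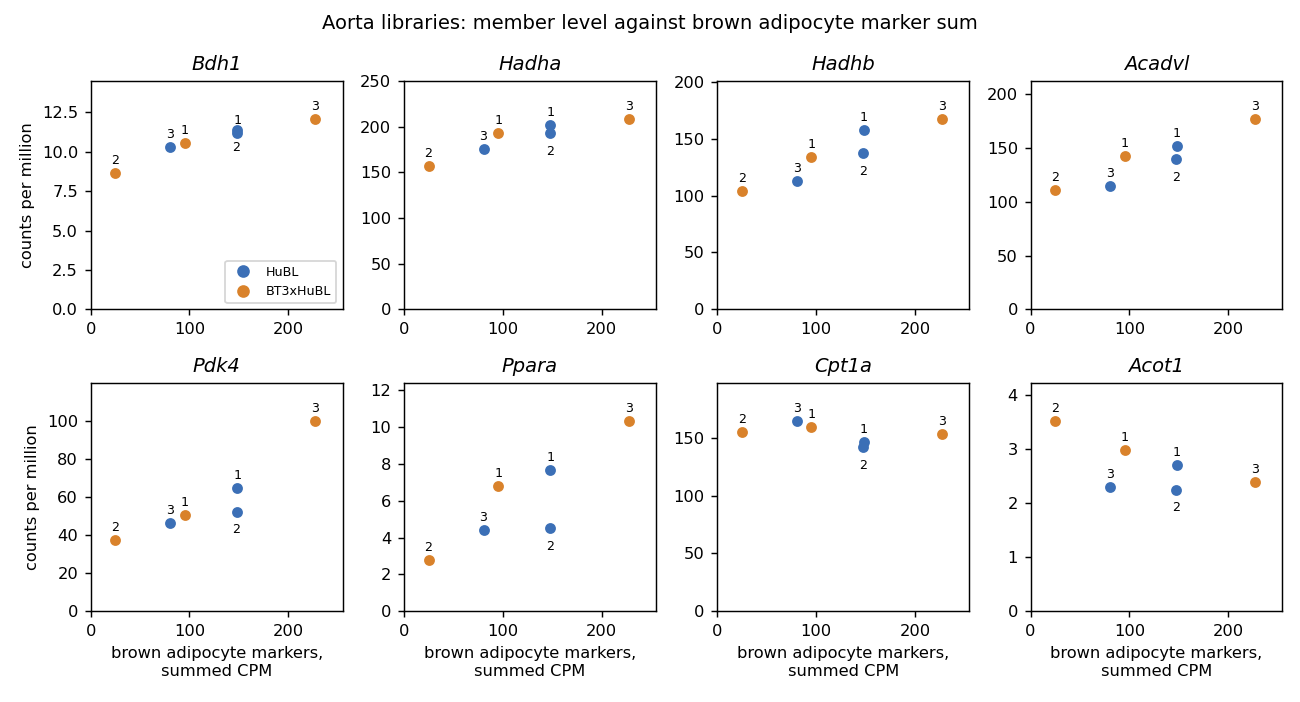
CPM of single genes in the 6 aorta libraries (vertical axis) against the summed CPM of 9 brown adipocyte markers (horizontal axis), with replicate numbers. Both axes are linear, whereas r in the text is on the log2 scale. Bdh1, Hadha and Hadhb increase with the marker sum from BT3xHuBL aorta 2 (24.9 CPM) to BT3xHuBL aorta 3 (227 CPM).

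Whether the genotype difference itself depended on the tissue was tested over the features kept in both tables. None of the 26 genes passed, and none of 11951 features did (edgeR, 0%). An unadjusted p under 0.05 was found for 3 of the 26 genes and for 8.61% of all features, and DESeq2 and limma-voom called 0 of the 26. The 3 genes were Acot2, whose difference in liver exceeded that in aorta by 0.77 (SE 0.27, edgeR adjusted p 0.482) on the log2 scale, Aldh3a2, by 0.35 (SE 0.15, adjusted p 0.540), and Eci2, by 0.38 (SE 0.16, adjusted p 0.542). For Acaa2 the liver difference was the lower one, by -0.35 (SE 0.20, adjusted p 0.654). Cyp4a14, Fgf21, Cyp4a10 and Fabp1 had too few counts in aorta for this test.

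Beyond the 30 genes, 101 further genes of lipid oxidation, ketone body metabolism and the PPAR pathway were read from a list. In liver 93 were tested and none passed for genotype, 55 were above 0 (median 0.03), and 3 higher and 5 lower had an unadjusted p under 0.05, or 8.60% against 11.1% of all features. Those of smallest p were Bdh2, a cytosolic dehydrogenase, at -0.49 (SE 0.15, edgeR adjusted p 0.313), Gpd2, the mitochondrial glycerol phosphate dehydrogenase, at 0.49 (SE 0.15, adjusted p 0.325), Cyp4a12a, a further omega hydroxylase, at -0.63 (SE 0.23, adjusted p 0.381), and Acadsb, which oxidises short branched chains, at -0.19 (SE 0.08, adjusted p 0.408). The livers of the genotypes did not overlap for 0 of the 93 in the higher direction and 2 in the lower (2.15% against 6.57% of all features). In aorta 88 were tested and none passed, 64 were above 0 (median 0.07), and 8 had an unadjusted p under 0.05, all higher, or 9.09% against 4.08% of all features. Pnpla2, the triglyceride lipase of adipocytes and other cells, averaged 133 ± 14.8 CPM (SD, n = 3) in HuBL and 170.1 ± 11.5 CPM (SD, n = 3) in BT3xHuBL, a log2 difference of 0.35 (SE 0.10, edgeR adjusted p 0.787). Pdk2, another pyruvate dehydrogenase kinase, was at 0.33 (SE 0.11, adjusted p 0.919), Pparg, the receptor of adipocyte formation, at 0.30 (SE 0.10, adjusted p 1.00), and Acsm3, a medium chain acyl-CoA synthetase, at 0.91 (SE 0.32, adjusted p 1.00). The genotypes did not overlap for 14 of the 88 in the higher direction and for 1 in the lower, against 4.38% and 4.90% of all features. White adipocyte markers were fitted above 0 for 8 of 8 genes in the same aortas (median 0.38, none passing), and their part in these values was not tested.

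Of the further genes, 81 were tested for a genotype difference that depends on tissue and none passed; the smallest p belonged to Acsm5 (-0.81, SE 0.25, edgeR adjusted p 0.422), Pdk2 (-0.49, SE 0.16, adjusted p 0.4664), Acsm3 (-0.88, SE 0.33, adjusted p 0.508) and Ephx2 (-0.57, SE 0.22, adjusted p 0.508). Between the tissues 98 were tested, of which 74 were higher and 20 lower in HuBL liver, where 39.0% and 44.0% of all features were. Among those of smallest p were Acsm5, a medium chain acyl-CoA synthetase (log2 ratio 10.18, SE 0.18), Acox2, the peroxisomal oxidase of bile acid precursors (11824 counts over the HuBL livers and 1 over the HuBL aortas) and Crot, the peroxisomal carnitine acyltransferase (5.25, SE 0.15), with edgeR adjusted p of 5.60e-14 or less.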

How the data were processed

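RNA from liver (8 libraries) and aorta (6 libraries) was sequenced with QuantSeq V2, per the labels. The authors deposited raw whole-number counts per feature in 1 table for each tissue; HTSeq 2.0 and GRCm38 are named per the submitters' processing notes. No source used here names the aligner, strand setting, annotation or multi-mapping rule. The coordinates of the deposited tables do not match GRCm38 and were not used, so positions come from GENCODE M21.

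The counts were filtered with filterByExpr, scaled by TMM and tested with edgeR 4.0.16 (robust quasi-likelihood, R 4.3.3), with p adjusted by Benjamini-Hochberg over all features tested and a threshold of 0.05. Genotypes were compared within a tissue; tissue and interaction used all 14 libraries. Every adjusted p given without another tool's name is edgeR's. A feature had to pass the filter, which 30 of the 30 genes did in liver and 26 in aorta. CPM are counts scaled to TMM-adjusted library totals. Marker sums were compared by two-sided exact permutation tests (SciPy 1.17.1). DESeq2 1.42.0, limma 3.58.1 (voom) and the other alternatives are given at the end. The fit was tested on simulated counts.

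Values per library are given for genes that pass a genotype or interaction test and for the 8 of smallest p in each tissue, and in the tissue comparison the 5 highest and 5 lowest ratios are described; other genes singled out, such as Vnn1, Ppara, Hadha and Hadhb in aorta, were chosen after their values were seen. The genes and lists were chosen with earlier results of these data known, and the acute phase and Y-linked lists and the fit without BT3xHuBL livers 2 and 4 were added after seeing the data. A gene of the further list that this rule would name in the tissue comparison is not reported here.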

Additional observations from a re-analysis of the deposited data

Results flagged for a closer look

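In 3 of 60 groups of 4 liver libraries, 1 library lay far from the rest of its group, a gap that chance alone gives in about 1 of 20 groups. Aldh3a2 was lowest in HuBL liver 2, at 225 CPM. Cyp4a14 was highest in BT3xHuBL liver 4, at 1280 CPM, in the library with 2418 CPM of Saa1. Vnn1 was highest in HuBL liver 4, at 94.7 CPM.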

How the results depend on the processing

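In liver, DESeq2 called 1 of the 30 genes where edgeR called 0: Cyp4a14 (log2 difference 2.87, adjusted p 0.0353). It also called 133 of all features where edgeR called 0, and 68 in aorta where edgeR called 4; the cause was not tested. Leaving out 1 library at a time called 0 to 0 of the 30 genes in liver, 0 to 0 of 26 in aorta, 0 to 0 for the interaction and 26 to 27 between tissues. RLE scaling, limma-voom, no low-count filter, a mean of at least 5 CPM and a fit without robust weights kept these counts. Same-numbered livers of the genotypes had correlations of deviations of -0.042, 0.159, 0.102 and 0.069, and differently numbered livers of -0.217 to 0.175. Same-numbered aortas had -0.058, 0.135 and 0.007, and differently numbered aortas -0.139 to 0.142. So few pairs cannot decide whether replicate numbers pair the libraries. With the replicate number as a block, 0 of the genes passed in liver, 0 in aorta, 0 for the interaction and 26 between tissues, and of all features 10 in liver and 14 in aorta. The tissue ratio of Pdk4 (-0.05) turned to 0.10 without HuBL aorta 1, 0.19 without HuBL liver 2 and 0.23 without HuBL liver 3, and ran from -0.73 (without HuBL liver 4) to 0.23 over the single libraries left out. That of Crat passed without HuBL liver 3 (0.48) and that of Acot2 without HuBL liver 4 (-0.44). Aorta depth set no level for genes under 3 counts, and 3 or 4 libraries a group limit the liver and aorta comparisons.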
